A study of Mus musculus with 12 samples.

Results

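The genes of MHC class I antigen presentation were examined in myeloid-derived suppressor cells (MDSCs), immature myeloid cells that dampen T cell responses, sorted from mouse liver tumors. The members were 10 genes chosen by symbol: H2-K1, H2-D1, B2m, Tap1, Tap2, Tapbp, H2-Q4, H2-Q6, H2-Q7 and H2-T23. All 10 were found among 24346 gene symbols, and all 10 had enough signal to be tested in every comparison. Wild-type C57BL/6J female mice, 6 to 8 weeks old, carried orthotopic tumors of Hepa 1-6, a mouse hepatoma line, and received vehicle, MS-275 (entinostat) or CXD101, which are both inhibitors of the class I histone deacetylases HDAC1 to HDAC3. Each inhibitor was given at 5 mg/kg by daily intraperitoneal injection for 10 days from day 10 after inoculation, and tumors were taken on day 21. That schedule, the strain and the age are described for the monocytic cells (M-MDSCs, CD11b+Ly-6C-high Ly-6G-). For the polymorphonuclear cells (PMN-MDSCs, CD11b+Ly-6C-intermediate Ly-6G+) the labels give the wild-type genotype, the treatment and the tumor origin, and the dose and schedule were not given in the sources used here. Mice with a high share of MDSCs in blood were selected before dosing, in all groups alike. Every group had 2 libraries, 12 in all. The paper describes its M-MDSC RNA-seq as 2 biological replicates and does not mention the PMN-MDSC libraries. The labels do not say whether both libraries of a group came from separate mice. The p-values therefore measure the spread between libraries, which may be technical in PMN-MDSCs and need not be that between single mice in either subset.

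MHC class I molecules show peptides from inside the cell to CD8+ T cells. A polymorphic heavy chain (H2-K1 and H2-D1 in these mice) pairs with the invariant light chain beta-2 microglobulin (B2m). Peptides cut by the proteasome are pumped into the endoplasmic reticulum by the transporter of Tap1 and Tap2, and tapasin (Tapbp) bridges the transporter and the empty heavy chain. The nonclassical heavy chains encoded by the H2-Q and H2-T genes are less polymorphic. H2-Q6, H2-Q7, H2-Q8 and H2-Q9 form the Qa-2 family of close copies, and H2-T23 encodes Qa-1, the ligand of the inhibitory receptor CD94/NKG2A on NK cells and T cells.

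The values are FPKM, read fragments scaled by the length of the transcript and by the size of the library, so levels can be compared between genes per length. No counts were used. The steps between low FPKM values corresponded to about 8320000 to 10400000 reads in M-MDSC libraries and 6880000 to 8070000 reads in PMN-MDSC libraries, which is an estimate from annotated transcript lengths. The libraries carried most marks of their sort, but not all. Itgam (CD11b) was between 257 and 285 FPKM in M-MDSCs and between 825 and 895 FPKM in PMN-MDSCs, and under vehicle Ccr2 was at 147 and 137 FPKM in M-MDSCs against 40.7 and 35.7 FPKM in PMN-MDSCs. Csf3r, the G-CSF receptor of neutrophils, was at 8.75 and 10.5 FPKM in M-MDSCs and 214 and 237 FPKM in PMN-MDSCs under vehicle. Csf1r, a further marker examined, did not follow the sort under vehicle. It was at 123 and 123 FPKM in M-MDSCs and at 160 and 145 FPKM in PMN-MDSCs. In the treated libraries Csf1r was at 94.9 to 104 FPKM in M-MDSCs and at 59.9 to 72.4 FPKM in PMN-MDSCs. Ly6c2, which encodes the sorting antigen Ly-6C, was at 1360 and 1306 FPKM in M-MDSCs and 511 and 455 FPKM in PMN-MDSCs under vehicle. It was higher in the treated libraries of both subsets, at 2041 to 2447 FPKM in M-MDSCs and 1418 to 1677 FPKM in PMN-MDSCs. Ly6g, the gene of the sorting antigen Ly-6G, was not among the gene symbols.

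Markers of other cells moved with treatment. The summed FPKM of 12 neutrophil marker genes, all at 1 FPKM or more, was 12123 to 12816 in M-MDSCs under vehicle, 25123 to 29323 under MS-275 and 24329 to 25636 under CXD101. In PMN-MDSCs the same sum was 71701 to 97610 under vehicle, 255751 to 279206 under MS-275 and 270036 to 296227 under CXD101. Most of each sum was S100a8 and S100a9, and not all listed genes went that way. In M-MDSCs Ltf was at 73.3 and 102 FPKM under vehicle and 29.1 and 31.8 FPKM under MS-275, and Camp, Ngp and Mmp9 were also lower in both MS-275 libraries than in both vehicle libraries. Eosinophil markers (5 genes) summed to 10.2 to 15.0 FPKM in M-MDSCs under vehicle, 144 to 163 under MS-275 and 112 to 123 under CXD101, and to 48.2 to 66.2 FPKM in PMN-MDSCs. The 10 dendritic cell markers went the other way, from 15.0 to 20.2 FPKM in M-MDSCs under vehicle to 3.14 to 7.60 FPKM in the treated libraries, and from 29.6 to 35.8 to 9.14 to 13 FPKM in PMN-MDSCs. The 10 macrophage markers summed to 154 to 158 FPKM in M-MDSCs under vehicle 80.5 to 86.5 FPKM under MS-275 and 137 to 162 FPKM under CXD101, and in PMN-MDSCs to 199 to 213, 131 to 144 and 122 to 139 FPKM, with the Kupffer cell marker Clec4f at 0 throughout. Of 15 lymphocyte and NK cell markers 1 to 3 reached 1 FPKM in a group. They summed to 6.52 to 7.44 FPKM in M-MDSCs under vehicle, 11.4 to 12.1 under MS-275 and 12.4 to 13.96 under CXD101. In PMN-MDSCs the sums were 6.13 to 7.90, 9.56 to 10.2 and 10.3 to 10.9 FPKM. Of 10 liver and liver tumor genes 2 to 3 reached 1 FPKM, and Ttr, Fgb and Ahsg were at 0. These 10, mostly Trf, summed to 61.6 to 64.7, 41.7 to 44.7 and 48.4 to 51.6 FPKM in M-MDSCs. In PMN-MDSCs they summed to 157 to 163, 269 to 272 and 233 to 234 FPKM. The part of any of these markers in the class I values was not tested. In bulk RNA a change in the number of cells of a type and in RNA per cell cannot be told apart.

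The members lie in or near the mouse MHC on chromosome 17, apart from B2m on chromosome 2 (GRCm38, GENCODE). From centromere to telomere they are Tapbp (chr17:33915899-33929292, plus strand), H2-K1 (chr17:33996017-34000347, minus), Tap1 (chr17:34187553-34197225, plus), Tap2 (chr17:34203527-34216321, plus), H2-D1 (chr17:35262730-35267499, plus), H2-Q4 (chr17:35379617-35385290, plus), H2-Q6 (chr17:35424850-35430055, plus), H2-Q7 (chr17:35439155-35443773, plus) and H2-T23 (chr17:36029773-36032855, minus). B2m lies at chr2:122147686-122153083 on the plus strand. Tap1 overlaps the immunoproteasome gene Psmb9 head to head by 212 bases. B2m overlaps Patl2 and Tapbp overlaps Zbtb22, and whether fragments were assigned by strand was not given in the sources used here.

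RefSeq start sites (GRCm38.p6) gave an upstream window of 250 bases for 9 of the 10 members, all but Tap2. The windows of H2-K1, B2m and H2-Q7 are shown because these 3 genes, a classical heavy chain, the light chain and a nonclassical heavy chain, rose under MS-275 in at least 1 subset. H2-Q4 also rose, and its window is not shown because an exon of an antisense gene, Gm11131, overlaps it. Capitals mark matches on either strand to 4 short motifs chosen after the windows had been read: GGGA and CC with any 4 bases between them (a form of the NF-kB site of the class I enhancer), AANNGAAA (an interferon regulatory factor core), TGACG (the core of the CRE in the X2 element) and CCAAT (the Y element). The H2-K1 window lies at chr17:34000348-34000597 (minus strand), that of B2m at chr2:122147437-122147686 (plus) and that of H2-Q7 at chr17:35438905-35439154 (plus).
H2-K1: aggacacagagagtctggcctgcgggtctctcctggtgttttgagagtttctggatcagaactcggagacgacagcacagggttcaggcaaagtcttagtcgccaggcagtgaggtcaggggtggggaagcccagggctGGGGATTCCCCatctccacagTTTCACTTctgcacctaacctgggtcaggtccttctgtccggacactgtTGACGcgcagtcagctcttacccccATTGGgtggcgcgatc
B2m: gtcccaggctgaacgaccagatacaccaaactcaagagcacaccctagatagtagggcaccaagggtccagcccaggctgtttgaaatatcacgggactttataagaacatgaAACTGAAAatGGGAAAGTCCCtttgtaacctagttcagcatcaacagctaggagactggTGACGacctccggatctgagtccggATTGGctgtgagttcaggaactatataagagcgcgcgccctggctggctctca
H2-Q7: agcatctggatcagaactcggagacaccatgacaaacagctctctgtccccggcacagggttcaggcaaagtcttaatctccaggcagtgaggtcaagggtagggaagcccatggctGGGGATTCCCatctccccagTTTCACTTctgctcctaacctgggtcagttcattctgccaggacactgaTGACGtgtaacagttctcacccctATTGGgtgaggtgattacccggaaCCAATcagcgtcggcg

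Of the 9 windows, 6 held the NF-kB form, which 17.6% of 32851 RefSeq windows of that length hold. AANNGAAA was found in 7 of 9 (21.3% of all windows), TGACG in 6 of 9 (17.8%) and CCAAT in 9 of 9 (33.8%). All 4 motifs together were in the windows of H2-K1, H2-D1, B2m, H2-Q4 and H2-Q7, and in 0.198% of all windows. H2-Q6 lacked TGACG. Tap1 held TGACG and CCAAT, H2-T23 held AANNGAAA and CCAAT, and Tapbp held CCAAT. Matches of 1 motif on both strands can overlap. The motifs were chosen after these windows had been read, so their shares among the members are not a test against all windows. The heavy chain promoters are copies of each other, so they are not independent, and a match is a description of letters, not of a bound factor.

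The classical heavy chains present peptide to CD8+ T cells, and their levels come first. In M-MDSCs H2-K1 was at 229 and 237 FPKM under vehicle, 289 and 297 FPKM under MS-275, and 237 and 235 FPKM under CXD101. H2-D1 was at 348 and 364 FPKM under vehicle, 496 and 487 under MS-275, and 405 and 400 under CXD101. For both genes the 2 MS-275 libraries were above every vehicle and CXD101 library. On the log2(FPKM + 1) scale, which understates the change of low genes, MS-275 differed from vehicle by 0.33 ± 0.05 (SE) for H2-K1 (limma, Benjamini-Hochberg adjusted p = 0.0012) and by 0.47 ± 0.05 for H2-D1 (limma, adjusted p = 0.000222). Both passed the p threshold of 0.05 but stayed under the 1.5-fold that a call also required, at 1.26-fold and 1.38-fold. CXD101 differed from vehicle by 0.18 ± 0.05 for H2-D1 (limma, adjusted p = 0.0409), and for H2-K1 the difference was 0.02 with a 95% interval of -0.10 to 0.14.

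In PMN-MDSCs H2-K1 was at 290 and 201 FPKM under vehicle, 366 and 392 under MS-275, and 345 and 275 under CXD101. H2-D1 was at 903 and 778 FPKM under vehicle, 1179 and 1283 under MS-275, and 1114 and 967 under CXD101. The vehicle libraries of H2-K1 lay far apart, and the CXD101 libraries overlapped them. H2-K1 rose by 0.65 ± 0.17 on the log2 scale under MS-275 (limma, adjusted p = 0.0134). Without the second vehicle library the difference was 0.39 and under 1.5-fold, and without the second MS-275 library it was 0.60 (limma adjusted p = 0.0591). H2-D1 was 1.47-fold higher under MS-275 (0.55 ± 0.10, limma adjusted p = 0.00227), just under the fold limit, and 1.24-fold higher under CXD101 (0.31 ± 0.10, limma adjusted p = 0.0353).

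**Figure D1:**
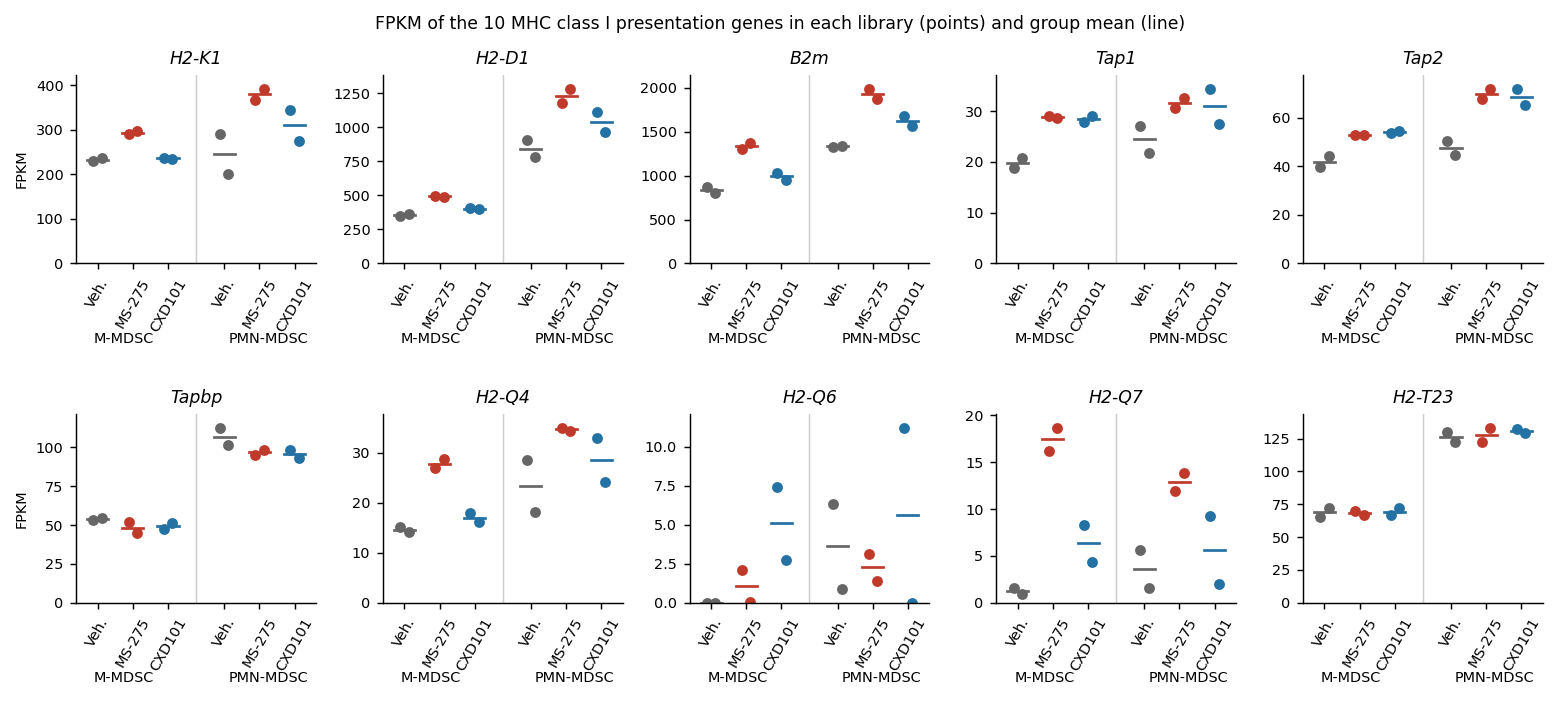
FPKM (vertical axes, starting at 0, 1 scale per gene) of each of the 10 members in each library, with points for libraries and a line for the mean of 2 libraries, for M-MDSCs at left and PMN-MDSCs at right of each panel. H2-T23 and Tapbp sit at about the same level in the 3 treatments of a subset, B2m is highest under MS-275 in both subsets, and H2-Q7 goes from 1.53 and 0.959 FPKM under vehicle to 16.2 and 18.7 FPKM under MS-275 in M-MDSCs.

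B2m, the light chain shared by nearly all class I molecules, was the highest member in every group. Its level was 872 and 798 FPKM in M-MDSCs under vehicle, 1299 and 1369 FPKM under MS-275, and 1036 and 950 FPKM under CXD101. The 3 treatments did not overlap. In PMN-MDSCs it was at 1332 and 1344 FPKM under vehicle, 1994 and 1875 FPKM under MS-275, and 1686 and 1563 FPKM under CXD101. B2m rose in M-MDSCs under MS-275 by 0.68 ± 0.07 (1.60-fold, limma adjusted p = 0.000139), and differed by 0.25 ± 0.07 under CXD101 (limma adjusted p = 0.0330). In PMN-MDSCs the differences were 0.53 ± 0.07 (1.44-fold, limma adjusted p = 0.000389) and 0.28 ± 0.07 (1.21-fold, limma adjusted p = 0.0107), both below the fold limit.

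The 2 subunits of the peptide transporter differed from vehicle under both inhibitors. Tap1 was at 18.9 and 20.9 FPKM in M-MDSCs under vehicle, 29.1 and 28.7 FPKM under MS-275, and 28.0 and 29.1 FPKM under CXD101. Tap2 was at 39.9 and 44.1 FPKM under vehicle, 52.9 in both MS-275 libraries, and 53.9 and 54.7 FPKM under CXD101. For both genes all 4 treated libraries were above both vehicle libraries. In M-MDSCs, Tap1 differed from vehicle by 0.52 ± 0.07 under MS-275 (limma adjusted p = 0.000761) and 0.50 ± 0.07 under CXD101 (limma adjusted p = 0.00241), and Tap2 by 0.33 ± 0.07 and 0.36 ± 0.07 (limma adjusted p = 0.00472 and 0.00663). All 4 were under 1.5-fold.

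In PMN-MDSCs Tap1 was at 27.2 and 21.7 FPKM under vehicle, 30.7 and 32.6 FPKM under MS-275, and 34.5 and 27.5 FPKM under CXD101. Tap2 there was at 50.4 and 44.6 FPKM under vehicle, 67.6 and 72.1 FPKM under MS-275, and 72.1 and 65.4 FPKM under CXD101. For each gene all 4 treated libraries were above both vehicle libraries. Tap2 was higher under MS-275 by 0.55 ± 0.09 and under CXD101 by 0.52 ± 0.09 (limma adjusted p = 0.00127 and 0.00212), and Tap1 differed by 0.37 ± 0.13 and 0.33 ± 0.13 (limma adjusted p = 0.050 and 0.0801), which did not pass.

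Tapasin, the bridge to the transporter, showed no such difference. Tapbp was at 53.5 and 54.8 FPKM in M-MDSCs under vehicle, 52.0 and 44.6 FPKM under MS-275, and 47.6 and 51.5 FPKM under CXD101. In PMN-MDSCs it was at 113 and 101 FPKM under vehicle, 95.1 and 98.5 FPKM under MS-275, and 98.0 and 93.1 FPKM under CXD101. In each subset all 4 treated libraries lay below both vehicle libraries. The differences from vehicle ran from -0.16 to -0.13 in M-MDSCs and from -0.16 to -0.14 in PMN-MDSCs, and none passed the test (limma, lowest adjusted p = 0.108).

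**Figure D2:**
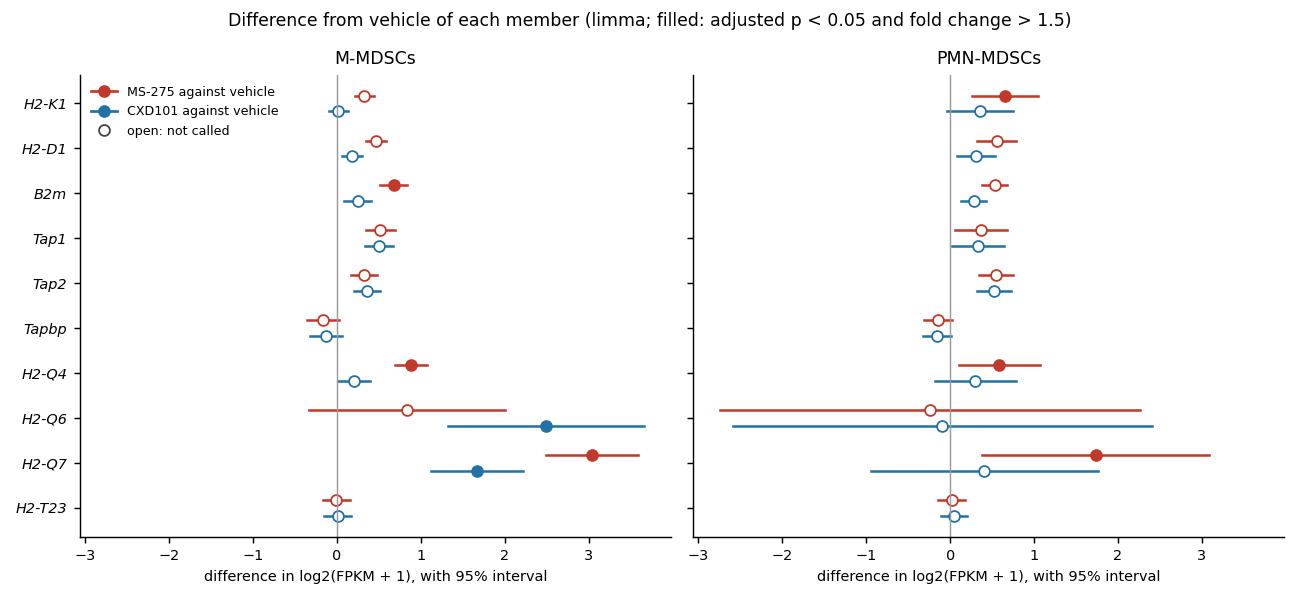
Difference from vehicle in log2(FPKM + 1) (horizontal axes, the same scale in both panels) for each member under MS-275 (red) and CXD101 (blue), with bars for the 95% interval of limma. Filled points passed an adjusted p under 0.05 and a fold change above 1.5, which holds for B2m, H2-Q4 and H2-Q7 under MS-275 and H2-Q6 and H2-Q7 under CXD101 in M-MDSCs, and H2-K1, H2-Q4 and H2-Q7 under MS-275 in PMN-MDSCs.

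Qa-1, encoded by H2-T23, is the nonclassical chain seen by NK cell receptors. H2-T23 was at 65.7 and 72.2 FPKM in M-MDSCs under vehicle, 70.1 and 67.1 FPKM under MS-275, and 66.8 and 72.1 FPKM under CXD101. In PMN-MDSCs it was at 130 and 123 FPKM under vehicle, 123 and 133 FPKM under MS-275, and 132 and 129 FPKM under CXD101. The libraries of the 3 treatments overlapped in both subsets. The 4 differences from vehicle lay between -0.01 and 0.05, and their 95% intervals reached from -0.17 to 0.20, so a change of 1.5-fold is outside them in either direction.

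H2-Q4, which encodes the secreted Qb-1 molecule, was at 15.2 and 14.1 FPKM in M-MDSCs under vehicle, 27.0 and 28.7 FPKM under MS-275, and 18 and 16.1 FPKM under CXD101. It rose by 0.88 ± 0.08 under MS-275 (1.84-fold, limma adjusted p = 0.000103), and the difference of 0.21 ± 0.08 under CXD101 did not pass (limma adjusted p = 0.119). In PMN-MDSCs it was at 28.5 and 18.2 FPKM under vehicle, 35.0 and 34.4 FPKM under MS-275, and 33.1 and 24.1 FPKM under CXD101. There it rose by 0.59 ± 0.21 under MS-275 (1.5-fold, limma adjusted p = 0.0441), a call that was lost without any one of the second vehicle or either MS-275 library (differences of 0.28 to 0.60).

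H2-Q7 had the largest difference from vehicle of the members under MS-275 in both subsets. It was at 1.53 and 0.959 FPKM in M-MDSCs under vehicle, 16.2 and 18.7 FPKM under MS-275, and 8.28 and 4.37 FPKM under CXD101, and the 3 treatments did not overlap. The rise was 3.05 ± 0.24 under MS-275 (8.26-fold on the log2(FPKM + 1) scale, limma adjusted p = 3.79e-05) and 1.67 ± 0.24 under CXD101 (3.17-fold, limma adjusted p = 0.00217). In PMN-MDSCs it was at 5.68 and 1.61 FPKM under vehicle, 12 and 13.9 FPKM under MS-275, and 9.28 and 1.99 FPKM under CXD101. The rise under MS-275 was 1.73 ± 0.58 (limma adjusted p = 0.0371), and it was 1.06 (limma adjusted p = 0.182) without the second vehicle library. Without either MS-275 library it was 1.83 or 1.63 and did not pass (limma adjusted p = 0.0879 and 0.116).

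H2-Q6 and H2-Q7 are near-identical copies, and their separate rows are reported as uncertain. H2-Q6 was listed at 0.0014 and 2.15e-05 FPKM in M-MDSCs under vehicle, 2.12 and 0.02 FPKM under MS-275, and 7.45 and 2.77 FPKM under CXD101. In PMN-MDSCs it was listed at 6.35 and 0.889 FPKM under vehicle, 3.14 and 1.41 FPKM under MS-275, and 11.2 and 0.000224 FPKM under CXD101. Replicates lay far apart, and since 1 FPKM of H2-Q6 was worth about 17.1 reads, the lowest values stand for less than 1 read. Its coding sequence is 95.5% identical to that of H2-Q7, with 44 differing bases among 974 aligned. The stretch of 120 coding bases in which they differ most, 14 bases, shows what a read has to separate. H2-Q6 is at chr17:35425108-35425227 and H2-Q7 at chr17:35439452-35439571, both on the plus strand, and capitals mark the differing bases.
H2-Q6: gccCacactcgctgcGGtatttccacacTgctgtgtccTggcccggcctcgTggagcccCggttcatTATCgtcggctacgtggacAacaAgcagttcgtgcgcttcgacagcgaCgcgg
H2-Q7: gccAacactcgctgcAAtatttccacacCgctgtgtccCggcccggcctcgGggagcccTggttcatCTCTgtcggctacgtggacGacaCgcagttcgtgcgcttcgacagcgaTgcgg

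Windows of the read length, 101 bases, were cut from the longest coding transcript of each member. An exact copy of 10.5% of the H2-Q6 windows and 16.2% of the H2-Q7 windows was found in a transcript of another gene, and with up to 2 mismatches against class I transcripts the shares were 35.9% and 34.0%. B2m, Tap1 and Tap2 shared none, and H2-K1 shared none exactly and 11.3% with up to 2 mismatches. The shares with up to 2 mismatches were 11.9% for H2-D1, 21.3% for H2-Q4 and 29.3% for H2-T23. GENCODE lists H2-Q6 and H2-Q7 but not H2-Q8 and H2-Q9 on the chromosome used, so these shares leave out the closest copies.

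**Figure D3:**
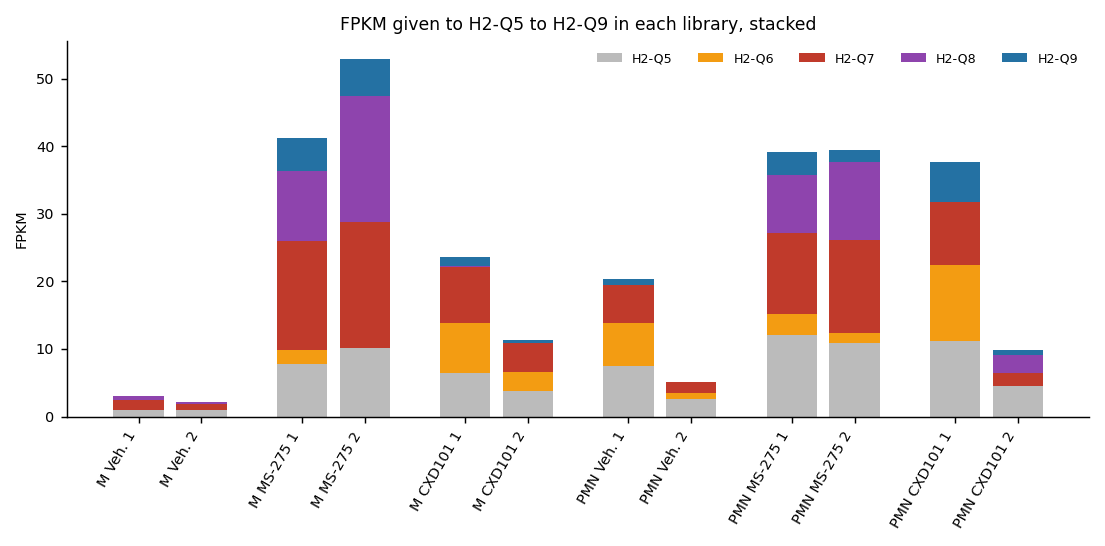
FPKM (vertical axis) given to H2-Q5, H2-Q6, H2-Q7, H2-Q8 and H2-Q9 in each of the 12 libraries, stacked. The share of a single gene changes between replicates, while the total is lowest in M-MDSC vehicle (2.12 and 3.09 FPKM) and highest in M-MDSCs under MS-275 (41.2 and 53.0 FPKM).

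Summing the family takes the split between copies out of the value. H2-Q6 to H2-Q9 together came to 2.12 and 1.2 FPKM in M-MDSCs under vehicle, 33.4 and 42.9 FPKM under MS-275, and 17.2 and 7.55 FPKM under CXD101. The sum rose by 3.89 ± 0.32 under MS-275 (limma adjusted p = 4.67e-05) and by 2.25 ± 0.32 under CXD101 (limma adjusted p = 0.00201), and the inhibitors differed by 1.64 ± 0.32 (limma adjusted p = 0.0145). In PMN-MDSCs the sums were 12.9 and 2.50 FPKM under vehicle, 27.1 and 28.6 FPKM under MS-275, and 26.4 and 5.42 FPKM under CXD101. The difference of 2.04 ± 0.74 under MS-275 passed (limma adjusted p = 0.0486), and that of 0.92 ± 0.74 under CXD101 did not (limma adjusted p = 0.341). H2-Q6 took 0.00179% to 43.3% of the sum in M-MDSC libraries and 0.00413% to 49.1% in PMN-MDSC libraries, and its own row rose by 2.50 ± 0.51 under CXD101 in M-MDSCs (limma adjusted p = 0.0102). That call was lost without the first vehicle library (limma adjusted p = 0.0518) or the first CXD101 library (limma adjusted p = 0.0673), and H2-Q6 under MS-275 did not pass (0.83 ± 0.51, limma adjusted p = 0.213). A row named H2-L, at 3.82% to 9.88% of the sum of H2-D1 and H2-L, was also listed apart from H2-D1. Mice of this haplotype are not known to make an L molecule, and H2-D1 with H2-L added differed from vehicle under MS-275 by 0.50 ± 0.05 in M-MDSCs and 0.60 ± 0.11 in PMN-MDSCs (limma adjusted p = 0.000158 and 0.00258).

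Counted over the members, 3 of 10 rose in M-MDSCs under MS-275 and 0 fell, where 10.1% of 11078 genes tested rose and 7.32% fell. Without the fold limit 7 of 10 were higher, against 19.2% of all genes. The median difference of the members was 0.49, and that of all genes tested was -0.06. Under CXD101 2 of 10 rose and 0 fell, where 5.14% of all genes rose and 8.13% were called in either direction. There 6 of 10 were higher by adjusted p alone (10.9% of all genes), and the medians were 0.23 for the members and -0.02 for all genes. Both MS-275 libraries lay above both vehicle libraries for 8 members (31.6% of all genes), and both CXD101 libraries did for 7 (28.7%).

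In PMN-MDSCs 3 of 10 members rose under MS-275 and 0 fell, where 14.6% of 11184 genes rose and 14.2% fell. By adjusted p alone 6 of 10 were higher, against 25.3% of all genes, with medians of 0.54 for the members and -0.03 for all genes. This count rests on the vehicle libraries: 5 members were called without the first one and 0 without the second, and 0 without the second MS-275 library. Under CXD101 limma called 0 of 10, where 11.9% of all genes rose and 9.54% fell. Of those 10, 3 passed the adjusted p alone (H2-D1, B2m and Tap2, against 21.4% of all genes) and 4 had an unadjusted p under 0.05. Without the first vehicle library H2-K1, Tap2 and H2-Q4 were called. The comparisons of both inhibitors with vehicle share their vehicle libraries within a subset, so their values are given side by side and not as separate evidence.

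MS-275 and CXD101 were set against each other directly, at the same dose and time in M-MDSCs and at a dose not given for PMN-MDSCs. That is 1 pair of compounds in each of 2 subsets, with p-values adjusted over all genes. In M-MDSCs MS-275 was higher than CXD101 for H2-Q4 (0.68 ± 0.08, limma adjusted p = 0.00283) and H2-Q7 (1.38 ± 0.24, limma adjusted p = 0.00974), 2 of 10 members where 3.22% of all genes were called higher and 1.17% lower. H2-K1, H2-D1 and B2m also differed, by 0.31, 0.29 and 0.43 (limma adjusted p = 0.00835, 0.0111 and 0.00736), under 1.5-fold, which makes 5 of 10 by adjusted p alone against 6.01% of all genes. Tap1, Tap2, Tapbp and H2-T23 did not pass, with 95% intervals of -0.15 to 0.19, -0.19 to 0.12, -0.23 to 0.15 and -0.18 to 0.15. The H2-Q6 row went the other way, at -1.66 with an interval of -2.83 to -0.49, and did not pass (limma adjusted p = 0.0663). In PMN-MDSCs limma called 0 of 10 members at an adjusted p under 0.05, where 0.465% of all genes were called higher and 0.340% lower, and 2 of 10, H2-D1 and B2m, had an unadjusted p under 0.05. The interval for H2-K1 there was -0.09 to 0.69 and that for H2-Q7 -0.03 to 2.68, so the libraries do not show that the compounds act alike.

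Several members differed between the subsets under vehicle. Of 10 members, 5 were higher in PMN-MDSCs under vehicle and 0 lower, where 17.2% of 11662 genes were called higher and 16.8% lower. They were H2-D1 (1.23 ± 0.08, 2.35-fold, limma adjusted p = 4.84e-07), Tapbp (0.97 ± 0.08, limma adjusted p = 2.33e-06), H2-T23 (0.87 ± 0.07, limma adjusted p = 1.62e-06), B2m (0.68 ± 0.07, limma adjusted p = 9.11e-06) and H2-Q4 (0.60 ± 0.18, limma adjusted p = 0.0138). For H2-K1 the difference was 0.05 with an interval of -0.27 to 0.37. The H2-Q4 call was lost without the first PMN-MDSC vehicle library (0.29) and without the second M-MDSC vehicle library (0.55).

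**Figure D4:**
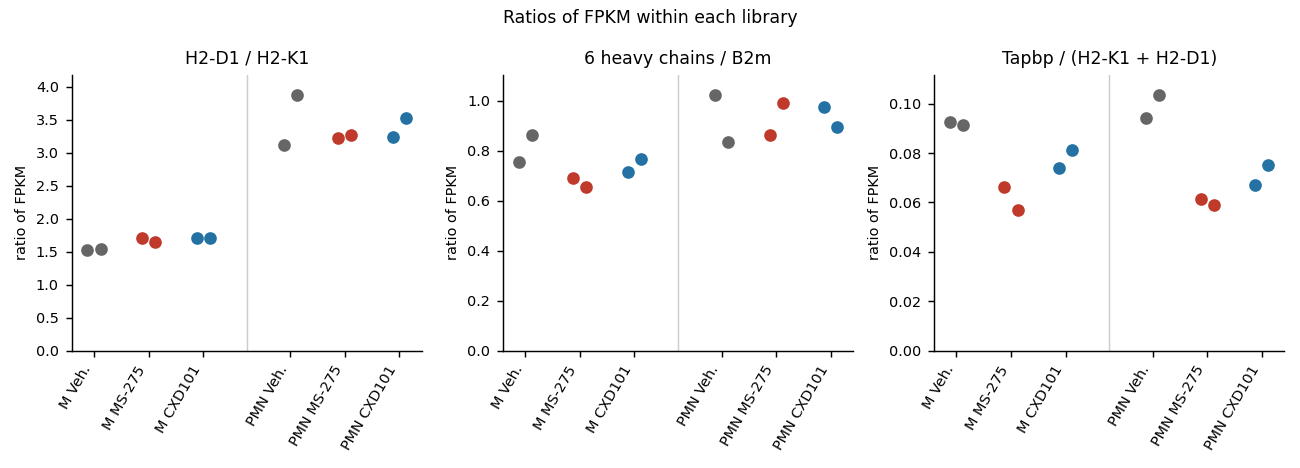
Ratios of FPKM within each library (vertical axes from 0), with 1 point per library, for H2-D1 over H2-K1, the sum of 6 heavy chains over B2m, and Tapbp over the sum of H2-K1 and H2-D1. H2-D1 over H2-K1 is 1.52 to 1.71 in the 6 M-MDSC libraries and 3.12 to 3.88 in the 6 PMN-MDSC libraries, and Tapbp over H2-K1 plus H2-D1 is lower in all treated libraries than in the vehicle libraries of the same subset.

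Ratios within a library do not depend on its scaling. H2-D1 over H2-K1 was 1.52 to 1.71 in M-MDSC libraries and 3.12 to 3.88 in PMN-MDSC libraries, with no overlap between the subsets. The 6 heavy chains together came to 0.656 to 0.862 of B2m in M-MDSCs and 0.835 to 1.02 of B2m in PMN-MDSCs. Tapbp was 0.0912 to 0.0927 of H2-K1 plus H2-D1 in M-MDSCs under vehicle, 0.0569 to 0.0663 under MS-275 and 0.0741 to 0.0811 under CXD101. In PMN-MDSCs the same ratio was 0.0943 to 0.104 under vehicle, 0.0588 to 0.0615 under MS-275 and 0.0672 to 0.0750 under CXD101. These ratios were not tested and are given as descriptions.

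The order of the levels was nearly the same everywhere. In M-MDSCs under vehicle it ran from B2m (835 ± 52.6 FPKM, SD, n = 2) through H2-D1 (356 ± 11.5), H2-K1 (233 ± 5.22), H2-T23 (68.9 ± 4.64), Tapbp (54.1 ± 0.941), Tap2 (42.0 ± 3.02), Tap1 (19.9 ± 1.41) and H2-Q4 (14.7 ± 0.773) to H2-Q7 (1.24 ± 0.403) and H2-Q6, and no neighbors overlapped. In PMN-MDSCs under vehicle B2m (1338 ± 8.08), H2-D1 (841 ± 88.9), H2-K1 (245 ± 63.0), H2-T23 (126 ± 5.23), Tapbp (107 ± 7.90) and Tap2 (47.5 ± 4.09) kept those ranks, while Tap1 and H2-Q4, and H2-Q7 and H2-Q6, overlapped in their 2 libraries. Tap2 was above Tapbp in M-MDSCs under either inhibitor and below it in every PMN-MDSC group.

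The response to an inhibitor was also compared between the subsets as an interaction. For MS-275, limma called 0 of 10 members (18.1% of 11662 genes were called in either direction), and the widest interval apart from H2-Q6 was that of H2-Q7, -2.98 to 0.36. For CXD101 it called 0 of 10 (13.9% of all genes), and 0 of the 20 tests had an unadjusted p under 0.05. The H2-T23 intervals were -0.19 to 0.24 and -0.18 to 0.25.

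**Figure D5:**
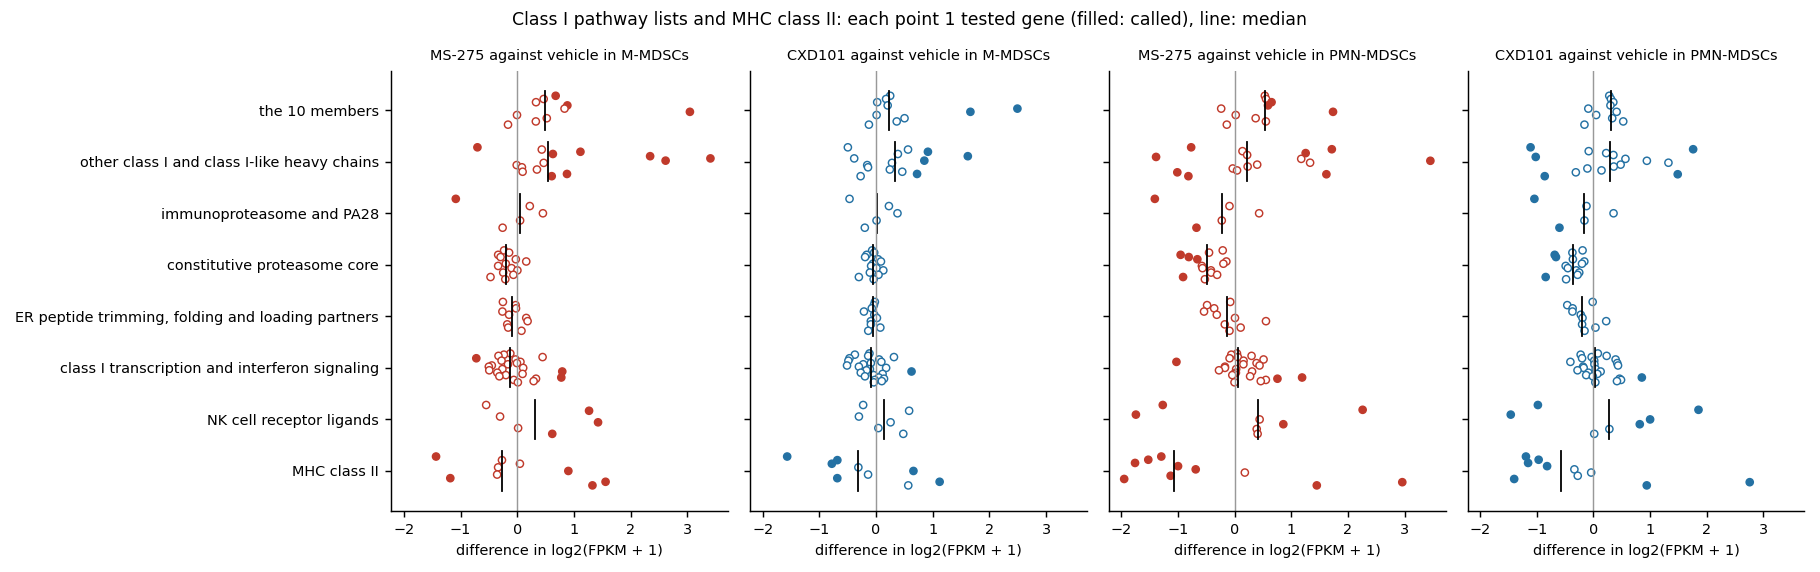
Difference from vehicle in log2(FPKM + 1) (horizontal axes, the same scale in each panel) of each tested gene of 8 lists, in the 4 comparisons with vehicle, with filled points for called genes and a line at the median of the list. Vertical offsets within a list only separate the points. The members and the other class I heavy chains have medians above 0 in all 4 panels, and the constitutive proteasome core has medians below 0.

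The proteasome supplies the peptides. Psmb10, the immunoproteasome subunit MECL-1, was at 63.0 and 68.1 FPKM in M-MDSCs under vehicle, 29.7 and 31.0 FPKM under MS-275, and 48.5 and 45.8 FPKM under CXD101. It fell by 1.09 on the log2 scale under MS-275 (SE 0.07, limma adjusted p = 1.49e-05) in M-MDSCs, and in PMN-MDSCs by 1.41 under MS-275 and 1.04 under CXD101 (limma adjusted p = 5.99e-05 and 0.000366). Psmb9, the neighbor of Tap1, was at 56.1 and 55.7 FPKM in M-MDSCs under vehicle and 76.4 and 77.3 FPKM under MS-275, 0.45 ± 0.06 higher (limma adjusted p = 0.000378) and under the fold limit, as Tap1 was. Of the 5 genes of the immunoproteasome and its PA28 activator, 0 rose in any of the 4 comparisons with vehicle. Of all genes, 10.1% and 5.14% rose in M-MDSCs under MS-275 and CXD101, and 14.6% and 11.9% in PMN-MDSCs. By adjusted p alone, 2 of the 5 were higher and 2 lower in M-MDSCs under each inhibitor, where 19.2% and 10.9% of all genes were higher. In PMN-MDSCs 1 was higher under each, and 3 and 2 were lower. Psme2, a PA28 subunit, fell in PMN-MDSCs by 0.68 under MS-275 and 0.60 under CXD101 (limma adjusted p = 9.82e-05 and 0.000268).

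Of the 14 genes of the constitutive proteasome core, 0 were called in M-MDSCs. There 10.1% of all genes rose and 7.32% fell under MS-275, and 8.13% were called in either direction under CXD101. In PMN-MDSCs 4 fell under MS-275 and 3 under CXD101, where 14.2% and 9.54% of all genes fell. By adjusted p alone, 13 and 11 of the 14 were lower in PMN-MDSCs, against 3187 and 2673 of 11184 genes. In M-MDSCs 8 were lower and 1 higher under MS-275, against 3021 and 2123 of 11078 genes. Under CXD101 1 was lower and 0 higher. The genes that fell in PMN-MDSCs under both inhibitors were Psma3, Psmb6 and Psma4, by 0.96, 0.91 and 0.81 under MS-275 (limma adjusted p = 2.51e-05, 5.95e-05 and 7.94e-05). Psma5 fell there by 0.66 under MS-275 (limma adjusted p = 0.00198). Of the 10 genes of peptide trimming and loading in the endoplasmic reticulum other than the members, such as Erap1, Calr and Pdia3, 0 were called in any of the 4 comparisons. In PMN-MDSCs 14.6% of all genes rose under MS-275 and 11.9% under CXD101, with the shares that fell as above. By adjusted p alone, 5 of these 10 were lower and 1 higher under MS-275 in PMN-MDSCs, and 6 lower and 0 higher under CXD101. In M-MDSCs 3 were lower and 1 higher under MS-275, and 0 passed under CXD101.

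Of the 25 genes of class I transcription and interferon signaling, 2 rose and 1 fell under MS-275 in each subset, where 10.1% of all genes rose in M-MDSCs and 14.6% in PMN-MDSCs. Under CXD101 1 rose and 0 fell in each subset, where 5.14% and 11.9% of all genes rose. By adjusted p alone, 8 of the 25 were higher and 2 lower in PMN-MDSCs under each inhibitor. There 25.3% of all genes were higher under MS-275 and 21.4% under CXD101. In M-MDSCs 4 were higher and 9 lower under MS-275, and 2 higher and 6 lower under CXD101. Of all genes, 19.2% and 10.9% were higher there, and 3021 and 1350 of 11078 were lower. Nlrc5, the class I transactivator, was at 2.89 and 2.90 FPKM in M-MDSCs under vehicle, 5.41 and 6.12 FPKM under MS-275, and 5.20 and 4.84 FPKM under CXD101. It rose by 0.79 ± 0.11 and 0.63 ± 0.11 (limma adjusted p = 0.000628 and 0.00503). In PMN-MDSCs Nlrc5 was at 3.64 and 2.26 FPKM under vehicle and 3.65 and 3.97 FPKM under MS-275, a difference of 0.31 that did not pass (limma adjusted p = 0.273). Socs1, an inhibitor of interferon signaling, rose under MS-275 in M-MDSCs by 0.78 ± 0.16 and in PMN-MDSCs by 1.19 ± 0.08, and under CXD101 in PMN-MDSCs by 0.85 ± 0.08 (limma adjusted p = 0.00541, 2.42e-05 and 0.000172). Socs3, of the same family, rose by 0.75 ± 0.10 in PMN-MDSCs under MS-275 (limma adjusted p = 0.000484). Irf8 fell by 1.03 in PMN-MDSCs under MS-275 (SE 0.16, limma adjusted p = 0.00132). None of the 7 interferon genes on the list passed the filter on low values in any fit.

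Of the other class I and class I-like heavy chains, 14 of 27 listed were tested in M-MDSCs and 16 in PMN-MDSCs. Under MS-275, 7 rose and 1 fell in M-MDSCs (10.1% and 7.32% of all genes), and 4 rose and 4 fell in PMN-MDSCs (14.6% and 14.2%). The 7 that rose in M-MDSCs include H2-L, H2-Q5, H2-Q8 and H2-Q9, rows of close copies whose separate values are uncertain. Under CXD101, 4 rose and 0 fell in M-MDSCs, where 5.14% of all genes rose, and 2 rose and 3 fell in PMN-MDSCs, where 11.9% rose and 9.54% fell. Mr1, which presents vitamin B metabolites to MAIT cells, rose in all 4 comparisons, from 3.88 and 3.53 FPKM to 7.21 and 8.07 FPKM in M-MDSCs under MS-275 (0.88 ± 0.11, limma adjusted p = 0.000344) and from 3.02 and 3.06 FPKM to 12.1 and 10.7 FPKM in PMN-MDSCs (1.62 ± 0.13, limma adjusted p = 5.96e-05). Cd1d1, which presents lipids to NKT cells, fell by 0.70 in M-MDSCs and 0.77 in PMN-MDSCs under MS-275 (limma adjusted p = 0.000568 and 0.00164). Procr, a class I-like receptor for protein C, rose by 0.61 ± 0.15 in M-MDSCs and fell by 0.82 in PMN-MDSCs under MS-275 (limma adjusted p = 0.0124 and 0.00468).

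Beyond these lists, the genes most like the mean standardized profile of the 10 members over the 12 libraries, among 8406 other genes at a mean of at least 5 FPKM, were Rilpl2 (r = 0.953), Pisd-ps2 (0.952), Wdtc1 (0.949), Cacfd1 (0.946) and Adora3 (0.944). With the mean of each subset removed they were Cdk5rap3 (0.937), Abhd14b (0.916), Tbc1d7 (0.913), Slc43a3 (0.907) and Tmem110 (0.904). The 2 rankings shared 0 of their 5 genes. These correlations describe 12 libraries that share 6 groups, and carry no test.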

How the data were processed

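RNA-seq was analyzed in 12 libraries in 6 groups of 2, formed from the submitters' labels. The authors deposited 1 table per library with FPKM values, already scaled for library size and gene length, for 24346 gene symbols. The labels name the TruSeq stranded mRNA kit, and the submitters' processing notes name TopHat2 2.1.1, Bowtie2 2.2.8, SAMtools 0.1.18, Cuffdiff 2.2.1 and mm10. The extraction kit is miRNeasy Micro in the labels and miRNeasy Mini in the methods. The methods describe RNA-seq of M-MDSCs and do not mention the PMN-MDSC libraries. How reads shared by near-identical genes were divided was not given in the sources used here.

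Tests used limma 3.58.1 (R 4.3.3) with an intensity trend, after adding a pseudocount of 1 to each FPKM and taking log2. Genes entered a model when 2 or more of its libraries reached 1 FPKM. The 3 groups of a subset shared 1 model, and all 12 libraries shared 1 model for the comparison of subsets and the interactions. Benjamini-Hochberg adjustment covered all genes tested in a comparison, and a gene was called at an adjusted p under 0.05 with a fold change above 1.5. The procedure was tested on simulated data. The deviations of same-numbered libraries from their group means correlated at -0.139 to 0.0880 between groups, so the numbers were not taken as pairs. Members and gene lists were chosen with earlier results of these data known. All 10 members were named; of other lists, at most 4 genes called in most comparisons with vehicle were named, and further genes (Psmb9, Erap1, Calr and Pdia3) were chosen after their values were seen. The depth estimate rests on the low-value steps of single-transcript genes, and no interval was derived from it. Promoter windows came from RefSeq GRCm38.p6, coordinates and transcripts from GENCODE, and alignments from Biopython. Alternatives tried were other scalings, filters, pseudocounts, fold limits, models, a replicate block, left-out libraries, and summed paralogs; the sums of H2-Q5 to H2-Q9 and of H2-D1 and H2-L were added after the data had been seen.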

Additional observations from a re-analysis of the deposited data

How the results depend on the processing

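Most member differences kept their side of the threshold. Counts of members called higher moved as follows. For MS-275 in M-MDSCs (3) they were 5 with quantile normalization, 1 with a fold limit of 2 and 7 by adjusted p alone. For CXD101 in M-MDSCs (2) they were 1 with no filter on low FPKM, 1 at FPKM of at least 5, 6 by adjusted p alone, 1 with all 12 libraries in one model, and 1 to 2 with a library left out. For MS-275 against CXD101 in M-MDSCs (2) they were 1 with the fold limit of 2, 5 by adjusted p alone and 1 with all 12 libraries, and the count of lower members (0) was 0 to 1 with a library left out, H2-Q6 being lower without the first MS-275 library. For MS-275 in PMN-MDSCs (3) they were 1 with no filter, 1 with no intensity trend, 1 with the fold limit of 2, 6 by adjusted p alone, and 0 to 5 with a library left out. For CXD101 in PMN-MDSCs (0) they were 3 by adjusted p alone and 0 to 3 with a library left out. For PMN-MDSCs against M-MDSCs (5) the fold limit of 2 gave 1. Interaction counts (0) with a library left out reached 0 to 1 lower for MS-275, and 0 to 1 higher and 0 to 2 lower for CXD101, the libraries being the second and first vehicle and the first CXD101 library of PMN-MDSCs. Where a library was left out of a group, the remaining one was assumed to vary like the others. With the replicate block, 1 member was lower under MS-275 than CXD101 in M-MDSCs (H2-Q6) and other counts kept within 1.5 times; the replicate numbers do not pair the samples. H2-Q4 in PMN-MDSCs against M-MDSCs was under 1.5-fold with libraries rescaled without S100a8 and S100a9 (0.58). H2-Q6 turned direction with its copies summed, to 1.64 (H2-Q6 to H2-Q9) and 1.45 (H2-Q5 to H2-Q9) for MS-275 against CXD101 in M-MDSCs, and to 2.04 and 1.82 for MS-275 in PMN-MDSCs, because the row then holds other genes. Of the recomputed results for single members 1701 kept their side of the threshold, 45 passed newly, 31 no longer passed and 4 turned direction. Direction was compared only where a call was made in at least 1 of the settings compared. The causes of the other moves were not tested. With 2 libraries a group, unequal replicates limit what the H2-Q6 and H2-Q7 rows can show.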

Other observations

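MHC class II genes, which present extracellular peptides to CD4+ T cells, were called in both directions. Cd74, the invariant chain, was at 161 and 148 FPKM in M-MDSCs under vehicle, 54.0 and 59.3 FPKM under MS-275, and 56.1 and 47.2 FPKM under CXD101, and at 440 and 353, 159 and 161, and 179 and 165 FPKM in PMN-MDSCs. It fell in all 4 comparisons, by 1.43, 1.57, 1.30 and 1.19 on the log2 scale (limma adjusted p between 1.53e-05 and 0.000115). H2-Eb1 also fell in all 4, and H2-Aa in 3 of the 4, by 1.76 in PMN-MDSCs under MS-275 (limma adjusted p = 4.46e-05). Of the class II list, 3 of 9 genes tested rose and 2 fell in M-MDSCs under MS-275, where 10.1% of all genes rose and 7.32% fell. Under CXD101 2 rose and 4 fell there, where 5.14% of all genes rose and 8.13% were called in either direction. In PMN-MDSCs 2 of 10 rose and 7 fell under MS-275, where 14.6% of all genes rose and 14.2% fell. Under CXD101 2 rose and 5 fell, where 11.9% rose and 9.54% fell. H2-Oa, a chain of the modulator H2-O, rose in all 4 comparisons, from 3.45 and 4.37 FPKM to 36.4 and 37.5 FPKM in PMN-MDSCs under MS-275 (2.96 ± 0.11, limma adjusted p = 2.32e-06). The dendritic cell markers fell in the same groups, and their part in the class II values was not tested.

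Ligands of NK cell receptors moved in both directions. Clec2i, a C-type lectin ligand, was at 11.6 and 12.5 FPKM in M-MDSCs under vehicle and 29.9 and 30.8 FPKM under MS-275, and at 4.30 and 3.38 FPKM and 23.9 and 20.3 FPKM in PMN-MDSCs. It rose by 1.27 ± 0.08 and 2.26 ± 0.13 (limma adjusted p = 1.17e-05 and 1.08e-05). Raet1d, a ligand of the activating receptor NKG2D, rose under MS-275 by 1.43 ± 0.27 and 0.86 ± 0.15 (limma adjusted p = 0.00299 and 0.00188). In M-MDSCs its row went from 1.43 and 0.358 FPKM to 4.62 and 3.24 FPKM. The Raet1c row there went from 0 and 1.98 FPKM to 0.303 and 0 FPKM. Raet1a and Raet1e overlapped between vehicle and MS-275 in M-MDSCs, and were higher in both MS-275 libraries in PMN-MDSCs. How reads were divided among the Raet1 rows was not tested, so the separate rows are uncertain. H60b, another NKG2D ligand, fell in PMN-MDSCs by 1.75 under MS-275 and 1.46 under CXD101 (limma adjusted p = 0.0108 and 0.0273). Clec2d, a ligand of inhibitory NKR-P1 receptors, fell in PMN-MDSCs by 1.27 under MS-275 and 0.98 under CXD101 (limma adjusted p = 0.000103 and 0.000528).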
